A study of Homo sapiens with 3 samples.

Results

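NRF2 pathway genes were followed in A549, an established line of lung adenocarcinoma cells, on 3 Agilent arrays of 1 colour. The list held 36 genes: the transcription factor NRF2 (*NFE2L2*), its inhibitor *KEAP1*, its partner *MAFG* and 33 of its target genes. A gene was found through the RefSeq accession given for each probe. In this way 34 of the 36 genes had a probe, 48 probes in all, among 47753 gene names and 58201 probes on the array. *AKR1C2* and *TRIM16L* had no matching probe, and the single *NFE2L2* probe was not well above background on any array, so 33 genes had a value. The arrays held total RNA from cells given the transfection reagent alone (mock), cells transfected with *miR-139-5p* and cells transfected with *miR-139-3p*, the guide and passenger strands of one hairpin. All were grown in RPMI 1640 and received Lipofectamine RNAiMAX, and the study's methods give 10 nM for all miRNA precursors. The mock cells received no control RNA, and the time from transfection to harvest is not given for the arrays in the sources used here, which state one for the RNA of a PCR assay.

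NRF2 is a leucine zipper transcription factor that pairs with small MAF proteins on antioxidant response elements in the promoters and enhancers of its targets. KEAP1 binds NRF2 in the cytoplasm and presents it to a ubiquitin ligase, so that NRF2 is degraded until oxidants or electrophiles modify KEAP1. A549 is widely known as a line with a mutant *KEAP1* and constantly active NRF2, in which enzymes for glutathione, NADPH and the reduction of aldehydes are abundant. The arrays measured mRNA and did not test that mutation. Transfer of miRNA into cells lowers mRNAs mainly through pairing of the seed, bases 2 to 8 of the miRNA, with sites in the 3′UTR. The mature strands are shown because the arrays compare them with each other. They are printed 5′ to 3′ from RefSeq, assembly GRCh38.p14, with the seed in capitals; both lie on the minus strand of chromosome 11, at chr11:72615102-72615124 for the 5p strand and at chr11:72615066-72615088 for the 3p strand.
hsa-miR-139-5p: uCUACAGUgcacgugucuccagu
hsa-miR-139-3p: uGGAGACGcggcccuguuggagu
Both have 23 bases, and their seeds are CUACAGU and GGAGACG.

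The antioxidant response element links these genes, and its core was looked for near their start sites. The core was spelled TGACNNNGC, or GCNNNGTCA when it lay on the other strand, in windows from 250 bases before to 50 after each RefSeq start. It was present for 9 of the 26 genes of the list that the promoter table held, or 34.6%, against 4384 of 27305 genes, or 16.1%, in the whole table. The 9 genes were *CBR1*, *EPHX1*, *GCLM*, *GPX2*, *KEAP1*, *ME1*, *PGD*, *PIR* and *TXNRD1*. The table did not hold *SLC7A11*, *GSR*, *PRDX1*, *AKR1B10*, *CBR3*, *CES1*, *HMOX1*, *FTH1*, *ABCC3* and *TRIM16L*. The following stretches of GRCh38.p14 are shown because they belong to genes whose values went different ways on the arrays. Each is written 5′ to 3′ on the strand of its gene, with the core in capitals. The *GCLM* stretch lies at chr1:93909446-93909474 (minus strand, core from base -34 relative to the start), the *KEAP1* stretch at chr19:10502784-10502812 (minus strand, from base -31), the *GPX2* stretch at chr14:64942849-64942877 (minus strand, from base -122), the *EPHX1* stretch at chr1:225825266-225825294 (plus strand, from base -78) and the *TXNRD1* stretch at chr12:104215670-104215698 (plus strand, from base -99).
GCLM: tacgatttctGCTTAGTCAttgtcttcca
KEAP1: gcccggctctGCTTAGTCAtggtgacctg
GPX2: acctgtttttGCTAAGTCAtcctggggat
EPHX1: tgagattggcTGACTTGGCaggactgtgc
TXNRD1: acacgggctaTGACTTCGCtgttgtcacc
*KEAP1* had another match, from base -54, and *TXNRD1* had others, from bases -8 and -102, which are not printed. Matches near the start of *ME1* and *PIR* overlapped an AP-1 motif (TGACTCA, or TGAGTCA on the other strand). A match describes these letters and does not show a site in use.

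Each array had 60901 spots other than controls, and 48.1% to 53.1% of them were well above background. No spot was saturated (0 on each array). The deposited intensity of each spot was divided by the 75th percentile of its array, which was 81.0 to 93.6, and the quotient is called the relative signal below. Relative signals are compared between arrays for the same probe, never between genes. For a gene with several probes, the signal is their mean on the log scale. Slide 1 carried mock and *miR-139-5p*, and slide 2 carried *miR-139-3p*, whose effect and that of the slide cannot be told apart. Each condition had 1 array, so no difference has a replicate check and no test was made. Genes past 0.5 on the log2 scale, a change of 1.41-fold, are called lower or higher and are read beside the share of all protein-coding genes past that threshold. Probes of the same gene differed by a median SD of 0.28 in the log2 fold change of *miR-139-3p* against mock and 0.15 in that of *miR-139-5p*. This spread between probes holds no error between arrays. The epithelial keratins *KRT8*, *KRT18* and *KRT19* and the aldehyde dehydrogenase *ALDH1A1*, abundant in A549, were well above background on all 3 arrays, with log2 fold changes of -0.74, -0.84, 0.18 and -0.06 with the 3p strand and of -0.85, -0.77, -0.52 and -0.31 with the 5p strand. *PECAM1*, an endothelial marker, was not above background on any. The relative signal of *SFTPC*, from alveolar type 2 cells, was 0.09 to 0.19, with log2 fold changes of -0.97 with the 3p strand and -0.55 with the 5p strand. That of the leukocyte gene *PTPRC*, over the 2 of its 5 probes above background, was 0.09 to 0.21, with log2 fold changes of 1.26 and 0.31. The T cell gene *CD3E* passed background with *miR-139-3p* alone. The part of other cell types in the values below was not tested. *CDKN2A*, known to be deleted in A549, had 1 of 2 probes well above background in mock and with *miR-139-5p*; that spot was an outlier on the other array and was left out there, and the target of the probe was not checked.

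With *miR-139-3p*, most NRF2 targets that moved were lower, and with *miR-139-5p* the list stayed near mock apart from *HMOX1*, *EPHX1* and *GPX2*. Against mock, 15 of the 33 genes with a value were lower with *miR-139-3p*, 2 were higher and 16 lay between. This is 45.5% lower and 6.06% higher, where 30.5% and 23% of protein-coding genes were. The median over the 33 genes was a log2 fold change of -0.39, against -0.15 over protein-coding genes, whose SD was 0.85. After *miR-139-5p*, 2 of the 33 genes were lower, 1 was higher and 30 lay between, or 6.06% lower and 3.03% higher against 12.2% and 10.6% of protein-coding genes. Past 1 on the log2 scale, 8 of the 33 genes were lower with *miR-139-3p* and 0 higher, against 12.9% and 10.3% of protein-coding genes, and 2 were lower with *miR-139-5p* and 0 higher, against 2.36% and 1.85%. The median with *miR-139-5p* was -0.05, against 0.00 over protein-coding genes with an SD of 0.45. Both comparisons share the mock array. The *miR-139-3p* array gave the lowest of the 3 signals for 23 of the 33 genes and the highest for 8, where it gave the lowest for 50.9% and the highest for 32.6% of 12323 protein-coding genes. A lower signal of bulk RNA cannot tell less RNA per cell from fewer cells that carry it.

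**Figure D1:**
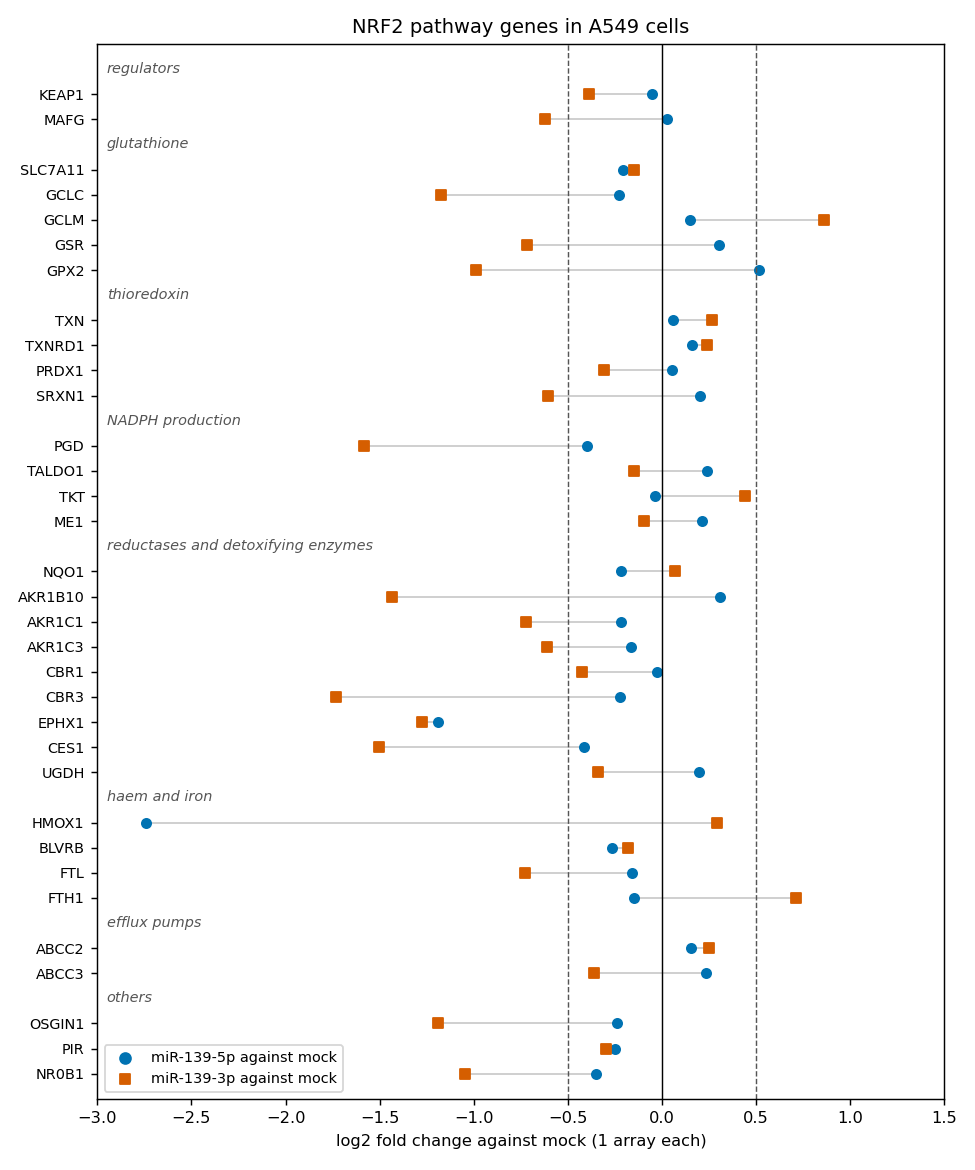
The log2 fold change against mock of the 33 NRF2 pathway genes with a value, on the horizontal axis, for miR-139-5p (blue circles) and miR-139-3p (orange squares), 1 array each, grouped by role. Dashed lines mark -0.5 and 0.5; the circles lie between them for 30 genes and the HMOX1 circle lies at -2.74, while 15 squares lie left of -0.5 and 2 right of 0.5.

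Among the regulators, *KEAP1* mRNA was near mock with *miR-139-5p* and lower, short of the threshold, with *miR-139-3p*. The *KEAP1* probe was printed in 10 spots per array, with a mean relative signal of 6.80 in mock, 6.56 with the 5p strand and 5.19 with the 3p strand. The spots kept after outliers were removed ranged from 6.52 to 7.11 in mock, from 6.27 to 6.88 with the 5p strand and from 4.73 to 5.49 with the 3p strand. The *miR-139-3p* spots did not overlap those of the other arrays, and the other arrays overlapped each other. The log2 fold changes were -0.39 and -0.05. The small MAF protein *MAFG*, a DNA-binding partner of NRF2, had relative signals of 6.01, 6.12 and 3.90, in the order of mock, the 5p strand and the 3p strand that all signals below keep. It was lower with *miR-139-3p* at -0.62, with an SD of 0.44 between its 2 probes. Raw signals of the *NFE2L2* probe were 1.76, 1.33 and 1.13, at background, and its level is not reported.

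Genes for glutathione held both directions. Cystine enters through *SLC7A11*, and the glutamate-cysteine ligase, made of a catalytic (*GCLC*) and a modifier subunit (*GCLM*), joins cysteine to glutamate. *SLC7A11* had relative signals of 19.99, 17.3 and 18.0, and its log2 fold changes were -0.21 and -0.15 against mock. *GCLC* had 19.7, 16.8 and 8.71, so that the *miR-139-3p* array held 44.2% of the mock signal, a log2 fold change of -1.18. *GCLM* had 21.1, 23.3 and 38.2, and its value of 0.86 with *miR-139-3p* was the highest log2 fold change in the list. The subunits of the ligase thus went opposite ways with *miR-139-3p* and stayed within 0.5 with *miR-139-5p*, at -0.23 and 0.15. Each subunit was read by 1 probe in 1 spot per array. *GSR*, which reduces oxidised glutathione, had 10.2, 12.6 and 6.18, and its 2 probes gave -0.38 and -1.06 with *miR-139-3p*, a mean of -0.72. *GPX2*, a selenium peroxidase that uses glutathione, had 94.3, 135 and 47.6. It was the one gene past the threshold in opposite directions, at -0.99 with the 3p strand and 0.52 with the 5p strand, the latter close to the threshold. In all, 3 of the 5 glutathione genes were lower with *miR-139-3p* and 1 was higher, where 30.5% and 23% of protein-coding genes were, with a median of -0.72 against -0.15.

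Of 4 thioredoxin system genes, 1 was lower after *miR-139-3p* and 0 were higher, against 30.5% and 23% of protein-coding genes. *TXN*, the thioredoxin that reduces protein disulfides, had relative signals of 387, 403 and 465, and its reductase *TXNRD1* had 9.46, 10.6 and 11.2. Their log2 fold changes with *miR-139-3p* were 0.26 and 0.24. The peroxiredoxin *PRDX1* had 261, 271 and 211, a value of -0.31 with *miR-139-3p* and an SD of 0.28 between its 2 probes. *SRXN1*, which restores overoxidised peroxiredoxin, was lower with *miR-139-3p*: its signals were 53.8, 61.8 and 35.3, which puts it at -0.61. With *miR-139-5p* the 4 genes lay between 0.05 and 0.20.

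Among the enzymes that make NADPH or feed the pentose phosphate pathway, 1 of 4, *PGD*, was lower after *miR-139-3p* and 0 were higher, where 30.5% and 23% of protein-coding genes were. *PGD* (6-phosphogluconate dehydrogenase), an NADPH-forming enzyme of that pathway, had relative signals of 109.5, 83.1 and 36.6. The mock array was highest and the *miR-139-3p* array lowest, with 33.4% of the mock signal, a log2 fold change of -1.58, against -0.40 with *miR-139-5p*. *PGD* was read by 1 probe in 1 spot per array. The transaldolase *TALDO1* had 128, 151 and 116, and the transketolase *TKT* had 405, 395 and 548.7. The malic enzyme *ME1* had 3.65, 4.23 and 3.41. These other 3 genes stayed within 0.5 of mock on both arrays, *TKT* with the highest value, 0.44 with *miR-139-3p*.

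Carbonyl reductases and detoxifying enzymes held 6 of the 15 genes that were lower with *miR-139-3p*, with a median of -0.72 over the 9 genes with a value and none higher. Of protein-coding genes 30.5% were lower and 23% higher, with a median of -0.15. *AKR1B10*, an aldo-keto reductase of aldehydes and retinal, had relative signals of 548, 678 and 203. Its *miR-139-3p* signal was 37.0% of mock, a log2 fold change of -1.43 with an SD of 0.16 between its 2 probes, whereas *miR-139-5p* gave 0.31. The hydroxysteroid dehydrogenase *AKR1C1* had 169, 146 and 102, a value of -0.72 with *miR-139-3p* that its 2 probes shared within an SD of 0.08. *AKR1C3*, a close paralog, had 487, 434 and 319 and a value of -0.61. Probes of the *AKR1C* genes may share target RNA, so these 2 genes are not separate evidence.
The carbonyl reductases *CBR1* and *CBR3* differed in size. *CBR3*, read by 1 probe in 1 spot per array, had 2.49, 2.13 and 0.749, or 30.1% of mock with *miR-139-3p*. Its log2 fold change of -1.73 was the lowest of the list. With normexp it was -1.14 and no longer the lowest, as *PGD* was at -1.44 or below under all 13 alternatives. *CBR1* had 1.48, 1.45 and 1.101, a value of -0.43 that stayed short of the threshold. These are means of 2 probes far apart in brightness, at 19.9 and 0.11 in mock. The brighter and the dimmer probe gave -0.25 and -0.60 with *miR-139-3p*, and 0.17 and -0.23 with *miR-139-5p*. With normexp background correction the *miR-139-3p* value was -0.08. The carboxylesterase *CES1* was read by 4 probes, which were all lower with *miR-139-3p*, between -1.97 and -1.20. Its mean signals were 2.003, 1.51 and 0.706, a log2 fold change of -1.50 with an SD of 0.37. *NQO1*, the quinone reductase most often used as a reporter of NRF2 activity, had 8.40, 7.22 and 8.81 and stayed within 0.5 on both arrays, at -0.22 and 0.07. *UGDH*, which makes UDP-glucuronate, had 41.4, 47.4 and 32.7, a value of -0.34 with *miR-139-3p*.

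*EPHX1*, the microsomal epoxide hydrolase, was the one gene of the list lower with both miRNAs. Its relative signals were 11.01 in mock, 4.83 with the 5p strand and 4.56 with the 3p strand. Both transfected arrays held less than the mock array, 43.9% and 41.4% of it, and were close to each other, with a log2 difference of -0.08. The log2 fold changes against mock were -1.19 and -1.27. Both values rest on the same mock spot, as *EPHX1* had 1 probe.

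*HMOX1*, the inducible haem oxygenase that opens haem to biliverdin, carbon monoxide and iron, was lower with *miR-139-5p* by more than any other gene of the list, and not with *miR-139-3p*. Its probe was printed in 10 spots per array, of which 9, 10 and 8 were kept. The spots ranged from 48.9 to 52.8 in mock, from 7.39 to 8.0 with the 5p strand and from 59.1 to 65.0 with the 3p strand, with means of 50.9, 7.61 and 62.4. The 3 arrays did not overlap, and the SD between spots was 0.04 to 0.05 on the log2 scale. The *miR-139-5p* signal was 14.96% of mock, a log2 fold change of -2.74 or 6.69-fold lower. With *miR-139-3p* it was 123% of mock, a log2 fold change of 0.29. Spots of one probe repeat the hybridization of one RNA sample, so their spread holds no spread between cultures.

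**Figure D2:**
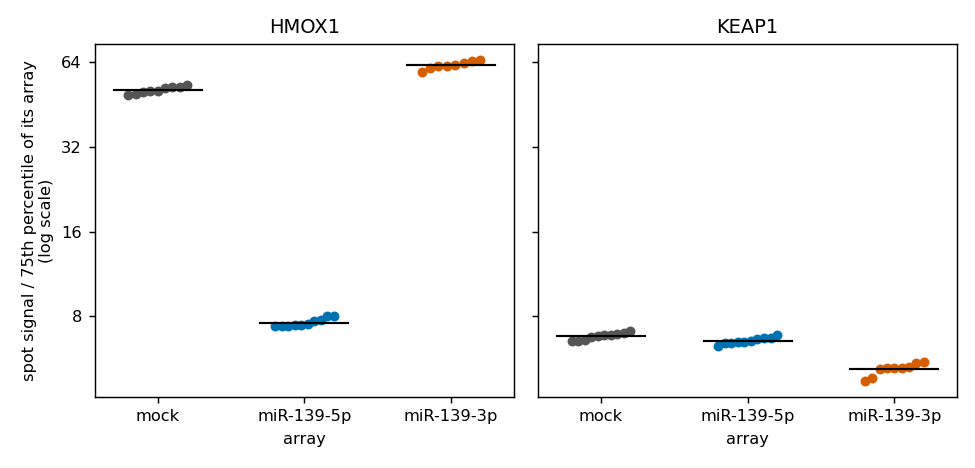
Relative signal of each kept spot (spot signal over the 75th percentile of its array, log axis) of the HMOX1 probe on the left and the KEAP1 probe on the right, on the mock (grey), miR-139-5p (blue) and miR-139-3p (orange) arrays; horizontal lines are means on the log scale. HMOX1 spots with miR-139-5p lie between 7.39 and 8.0, far below 48.9 to 52.8 in mock, while KEAP1 spots span 4.73 to 7.11 over all 3 arrays.

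Set against the other targets, *HMOX1* went its own way with *miR-139-5p*. Over the 30 other targets with a value the median was -0.09 and the SD 0.32, which put *HMOX1* 2.65 below that median (-2.65 on the log2 scale). None of the 30 was as low (0 of 30), and the next lowest was *EPHX1* at -1.19. Among all 20831 gene names measured on both arrays, 1 was lower than *HMOX1*: *LCN2*, a secreted lipocalin outside the list, named here after its value was seen. With *miR-139-3p*, *HMOX1* lay 0.69 above the median of the other targets, which was -0.39 with an SD of 0.69. There 27 of the 30 targets were lower than *HMOX1* and 3 were higher, and 12576 of 21175 measured names were lower.

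**Figure D3:**
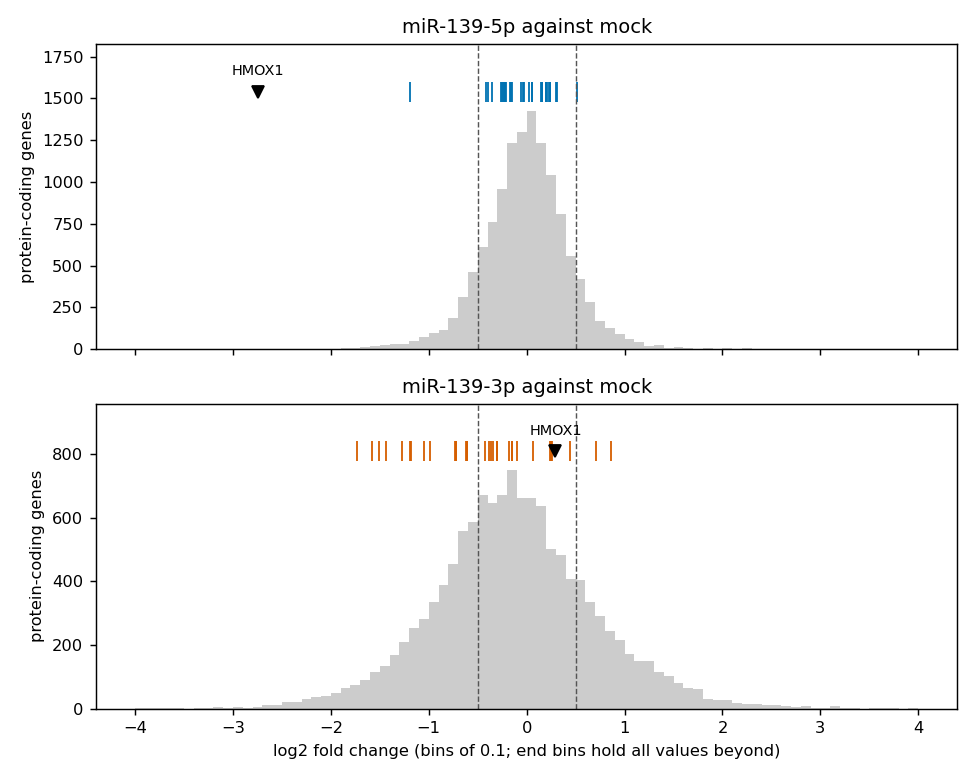
Histograms of log2 fold changes of protein-coding genes (grey bars, bins of 0.1; vertical axis, number of genes) for miR-139-5p against mock above and miR-139-3p against mock below; coloured ticks are the other NRF2 pathway genes and the black triangle is HMOX1. HMOX1 lies at -2.74 above and at 0.29 below, and the ticks spread from -1.73 to 0.86 with miR-139-3p.

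The direct comparison of both transfected arrays does not use the mock array. With *miR-139-3p* against *miR-139-5p*, 15 of the 33 genes were lower and 3 higher, or 45.5% and 9.09% against 30.6% and 23% of protein-coding genes, with a median of -0.40. The 15 include *ABCC3*, whose probes disagree, as described below. Past 1 on the log2 scale, 6 were lower and 1 higher, against 13.3% and 11%. The lower genes were led by *AKR1B10* at -1.74, *CBR3* at -1.51 and *GPX2* at -1.50. The 3 higher genes were *HMOX1* at 3.04, an 8.20-fold difference, *FTH1* at 0.86 and *GCLM* at 0.71, and with E1A spike-in scaling the latter were at 0.48 and 0.33. All 30 other targets were below *HMOX1* in this comparison, and 64 of 20446 measured names were above it.

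Products of haem breakdown are handled by further genes of the list, and these did not share the *HMOX1* value. *BLVRB*, a biliverdin and flavin reductase, had relative signals of 149.5, 124 and 132. The ferritin light chain *FTL* had 299, 274 and 180 over the 2 probes measured on all arrays, and the heavy chain *FTH1*, which oxidises iron for storage, had 484, 436 and 792 over 3 probes. With *miR-139-5p* the 3 genes were at -0.27, -0.16 (over 3 *FTL* probes) and -0.15. Both ferritin chains had probes of both signs there, from -0.32 to 0.07 for *FTL* and from -0.49 to 0.18 for *FTH1*. With *miR-139-3p* the ferritin chains went opposite ways, *FTL* at -0.73 with an SD of 0.36 between probes and *FTH1* at 0.71 with an SD of 0.34. The third *FTL* probe was an outlier on the *miR-139-3p* array, and the 3 *FTH1* probes gave 0.34, 0.79 and 1.00. Outside the list, *HMOX2*, the constitutive haem oxygenase, had 12.7, 14.0 and 11.9 and stayed within 0.5 of mock.

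Efflux pumps were within 0.5 of mock by their means, but *ABCC3* rested on probes that disagreed. *ABCC2*, which exports glutathione conjugates, had relative signals of 25.4, 28.3 and 30.2. The brighter *ABCC3* probe had 60.7, 39.0 and 79.0, and log2 fold changes against mock of -0.64 and 0.38. The dimmer probe had 4.46, 9.59 and 2.08, with values of 1.11 and -1.10. The probes had opposite signs in every comparison, so no direction is given for *ABCC3*.

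**Figure D4:**
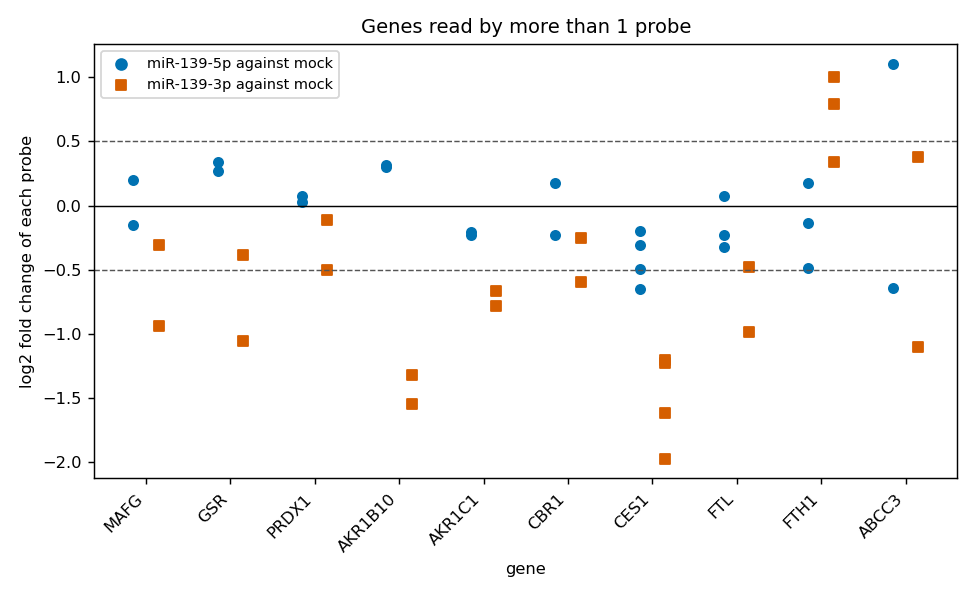
The log2 fold change against mock of every probe (vertical axis) for the 10 genes measured by more than 1 probe, with miR-139-5p as blue circles and miR-139-3p as orange squares. The 4 CES1 squares lie between -1.97 and -1.20 and the 3 FTH1 squares above 0, whereas the ABCC3 probes lie on both sides of 0 for each miRNA.

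The remaining targets were lower or near mock. *OSGIN1*, an oxidative stress-induced growth inhibitor, had relative signals of 2.40, 2.03 and 1.05 and, with *miR-139-3p*, a log2 fold change of -1.19. *NR0B1*, an orphan nuclear receptor without a DNA-binding domain of the usual kind, had 29.9, 23.4 and 14.5 and a value of -1.05. Both were lowest on the *miR-139-3p* array and highest in mock. The iron-binding protein *PIR* had 45.9, 38.6 and 37.3, with values of -0.25 and -0.30 that were short of the threshold with each miRNA.

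Of the 9 genes with the antioxidant response element core near their start, 7 were below 0 with *miR-139-3p*, as were 25 of the 33 genes of the list and 56.4% of protein-coding genes. *PGD*, *EPHX1* and *GPX2* were lower, at -1.58, -1.27 and -0.99, and *GCLM* was higher, at 0.86, where 30.5% and 23% of protein-coding genes were. *CBR1*, *KEAP1*, *PIR*, *ME1* and *TXNRD1* lay within 0.5 of mock, at -0.43, -0.39, -0.30, -0.10 and 0.24.

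Partners of NRF2 outside the list were described in the same way. Of 15 such partners, 14 had a value, and *miR-139-3p* gave 2 lower and 3 higher, or 14.3% and 21.4% against 30.5% and 23% of protein-coding genes, with a median of 0.03. With E1A scaling or none, 6 were lower, where 43.1% and 41% of protein-coding genes were. The small MAF protein *MAFF* was highest, with signals of 0.620, 0.471 and 1.86 and a log2 fold change of 1.58, and *DPP3*, a peptidase that competes with NRF2 for KEAP1, was lowest at -0.77. With *miR-139-5p*, 1 was lower, *DPP3* again at -0.77, and 3 were higher, or 7.14% and 21.4% against 12.2% and 10.6%, led by *AMER1* at 1.03 (0.52 with no filter on dim probes). Between the transfected arrays, *BTRC*, a substrate receptor of another ubiquitin ligase for NRF2, was lowest at -1.08 and *MAFF* highest at 1.98. With normexp background correction these were -0.67 and 1.24, and *MAFF* against mock was 0.97. *BACH1*, the repressor that competes with NRF2 on elements of *HMOX1*, had 2 probes. The brighter one had relative signals of 1.45, 3.16 and 1.23 and the dimmer one 0.07, 0.10 and 0.10. With *miR-139-5p* the probes were at 1.12 and 0.45, the latter short of the threshold, a mean of 0.79. With *miR-139-3p* they had opposite signs, at -0.24 and 0.40, so their mean of 0.08 gives no direction. The part of *BACH1* in the *HMOX1* value was not tested.

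A second set held 26 NRF2 targets outside the list. With *miR-139-3p*, 15 of the 23 with a value were lower and 3 higher, or 65.2% and 13.0% against 30.5% and 23% of protein-coding genes, with a median of -0.64. Over the alternatives at the same threshold 12 to 17 were lower and 0 to 3 higher, with 0 under normexp, where 8.82% of protein-coding genes were higher. The aldehyde dehydrogenase *ALDH3A1* was lowest, with relative signals of 102.6, 38.8 and 19.9 and a log2 fold change of -2.36. Among genes measured on both arrays, the channel gene *PANX2* was highest at 0.97 (0.31 with normexp). *SLC44A5*, not well above background in mock, had a bound of at least 0.83 (0.24 with normexp) and cannot be ranked against *PANX2*. With *miR-139-5p*, 4 of 22 were lower and 1 higher, or 18.2% and 4.55% against 12.2% and 10.6%, with a median of -0.04. *ALDH3A1* was again lowest at -1.40, and the taurine transporter *SLC6A6* was highest at 0.68. Between the transfected arrays 15 were lower and 4 higher, or 65.2% and 17.4% against 30.6% and 23%. Measured genes ran from *CYP4F3* at -1.75 to *PANX2* at 1.32, and *SLC44A5* had a bound of at least 0.67, which cannot be ranked. With normexp *CYP4F3* and *PANX2* were at -1.16 and 0.36 and 0 genes were higher, where 9.39% of protein-coding genes were.

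Of 20 further genes of haem and iron handling, 7 were lower with *miR-139-3p* and 3 were higher, or 35% and 15% against 30.5% and 23% of protein-coding genes, with a median of -0.13. Over the same alternatives 4 to 9 were lower and 1 to 5 higher. The ferroxidase *CP* was lowest at -1.12, and the haem-binding *HPX*, not well above background in mock, had a bound of at least 2.05 on the log2 scale. Under normexp both were within 0.5, at -0.26 and 0.43. With *miR-139-5p*, 3 of 19 were lower and 3 higher, or 15.8% of each against 12.2% and 10.6%, with a median of 0.00. The haem transporter *SLC48A1* was lowest at -0.75 and the iron exporter *SLC40A1* highest at 1.09. Between the transfected arrays *CP* was lowest at -2.05 and *HPX* was highest, at least 1.89 higher with *miR-139-3p* on the log2 scale, which normexp made -0.69 and 0.41.

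The *HMOX1* value with *miR-139-5p* held under 13 other ways of processing, between -2.81 and -2.61. Of the 15 genes lower with *miR-139-3p*, 10 were past -0.5 under all 13, and *MAFG*, *GSR*, *SRXN1*, *AKR1C3* and *FTL* were not, though all 15 kept their sign. With normexp *CBR3* and *CES1* moved to -1.14 and -0.84. *GCLM* was past 0.5 under all 13, between 0.61 and 1.06, and *FTH1* was not, between 0.32 and 1.00. *GPX2* with *miR-139-5p* moved between 0.44 and 0.65. The choice of probe and the scaling both changed how many genes counted as lower. For example, *MAFG* and *GSR* were at -0.31 and -0.38 by their brightest probe, short of the threshold. *CBR1* and *ABCC3* were at -0.60 and -1.10 by their lowest probe, past it. When the E1A spike-in, RNA added to each sample, set the scale, the median of all names shifted by -0.25 with *miR-139-3p*, and 21 genes of the list were lower where 43.1% of protein-coding genes were lower and 15.6% higher. Without scaling it was 21 genes where 41% of protein-coding genes were lower and 16.6% higher. When detected probes alone set the 75th percentile it was 12 genes where 24.5% were lower and 27.8% higher.

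**Figure D5:**
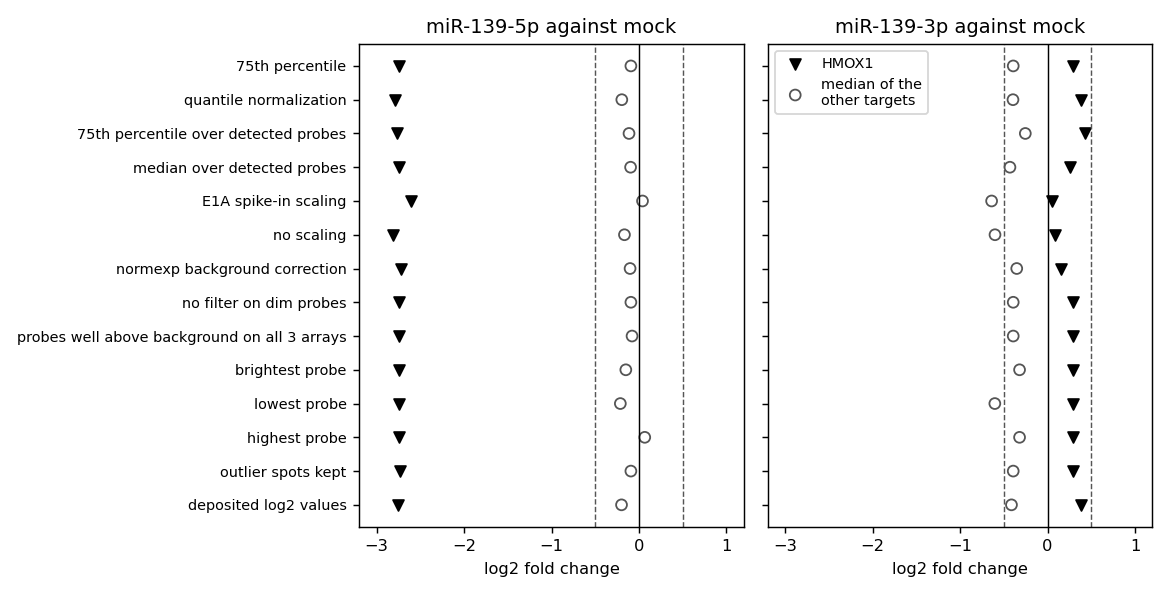
The log2 fold change of HMOX1 (triangles) and the median of the 30 other targets (circles), on the horizontal axis, under the main processing (75th percentile) and 13 alternatives (vertical axis), for miR-139-5p against mock on the left and miR-139-3p against mock on the right; dashed lines mark -0.5 and 0.5. With miR-139-5p the triangles stay between -2.81 and -2.61, and with miR-139-3p they stay within 0.5 of 0, above the circles.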

How the data were processed

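The authors deposited spot intensity values, background-subtracted by Feature Extraction 12.1.1.1 and not normalized between arrays, and log2 values per probe that matched quantile-normalized log2 signals when set against the scanner values. Processed signals were divided by the 75th percentile of their array and taken to log2. Outlier spots (614, 935 and 1526 for mock, the 5p strand and the 3p strand) were left out, spots of a probe were averaged, and a gene took the mean of those of its probes that passed background on both arrays compared. Failing that, it got a bound, for which the dim array took the lowest signal that passed background, or the probe's own where that was higher. Gene symbols came from RefSeq accessions, assembly GRCh38.p14, and 24751 of 25277 NM accessions matched. The array was designed on a different build, so no probe was placed on the printed sequences. The signal over background and the number of arrays limit the precision.

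All 36 genes of the list were to be named, with *BACH1*, *HMOX2* and the highest and lowest gene of each further list; 1 further gene of that rule is not reported here. The list, its groups and the further lists were chosen with earlier results of these data known. In total 14 alternatives were run, and the steps were tested on simulated data. Normexp (offset 50) took median signals. Python 3.11.15, numpy 2.4.6, pandas 2.3.3, matplotlib 3.10.9, R 4.3.3 and limma 3.58.1 were used.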

Additional observations from a re-analysis of the deposited data

How the results depend on the processing

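Raising the threshold from 0.5 to 1 left 8 genes lower and 0 higher with *miR-139-3p* against mock, 0 higher with *miR-139-5p*, and 6 lower and 1 higher between the transfected arrays. The genes higher with *miR-139-3p* against mock numbered 1 with quantile normalization, E1A scaling, the lowest probe of each gene or the deposited log2 values, where 20.3%, 15.6%, 21.2% and 19.3% of protein-coding genes were higher, and 3 with the 75th percentile over detected probes, where 27.8% were. The genes higher with *miR-139-5p* numbered 0 with the 75th percentile over detected probes, no scaling, normexp or the deposited log2 values, where 9.82%, 8.01%, 3.56% and 10.3% of protein-coding genes were higher, and 2 with the highest probe, where 12.7% were. With the lowest probe, 4 genes were lower with *miR-139-5p*, where 14.5% of protein-coding genes were, and the median of the list was -0.21. With the highest probe, *HMOX1* minus the median of the other targets was -2.81 with *miR-139-5p*. With E1A scaling, the comparison of *miR-139-3p* against *miR-139-5p* gave 21 genes lower and 1 higher, where 50.3% and 13.5% of protein-coding genes were, a median of -0.78 and 2.66 for *HMOX1*. E1A scaling shifts all values of an array alike, and quantile normalization does not. *ABCC3* reversed in that comparison, to 1.02 with the brightest or the highest probe, as its probes disagree. The values of single genes of the list under the alternatives were counted without those of *HMOX1*. Of these, 1164 moved by less than the spread between probes and 66 moved more with the same sign. A further 16 moved more and changed sign without being past 0.5 at first, and 2 reversed. No paired analysis was possible because there was 1 array for each condition and nothing was tested.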
